A study of Mus musculus with 8 samples.

Results

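Macrophage marker genes were examined in RNA of cultured dermal fibroblasts. The 7 genes were *Laptm5*, *Cd68*, *Csf1r*, *Ctss*, *Lyz2*, *Mrc1* and *Cd14*, taken by their symbols from the 15111 genes analysed, and all of them had values in all 8 libraries. The libraries came from 4 control and 4 TGFβ1FKO cultures. Control mice carried floxed *Tgfb1* alleles without Cre recombinase (Tgfb1fl/fl), whereas TGFβ1FKO mice carried the same alleles together with a tamoxifen-inducible Cre (Tgfb1fl/fl:Col1a2-CreERT). Mice of both genotypes were adults fed tamoxifen and were killed at 10 weeks of age. Cre was driven by a minimal *Col1a2* promoter with an enhancer active in fibroblasts, so that *Tgfb1* was to be deleted in fibroblasts and not in other cells of the skin. Back skin was digested with its epidermis, and the released cells were plated without a sort that the methods describe. They were cultured first in complete medium with serum, and RNA was taken after a later 72 h in serum replacement medium on fibronectin. Other skin cells could therefore have been carried into the cultures. The labels number the libraries but do not say that each is a separate mouse, and p-values then measure only the spread between these libraries.

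Macrophages are phagocytes of the myeloid lineage that live in the dermis and enter wounds as monocytes. Their survival depends on the receptor encoded by *Csf1r*, which binds CSF1 and IL-34, and mesenchymal cells such as fibroblasts are a source of these ligands. *Lyz2* encodes a lysozyme that cleaves bacterial cell walls, *Mrc1* the mannose receptor CD206 and *Laptm5* a lysosomal membrane protein of blood cells. These 4 genes are used as markers restricted to leukocytes, although *Lyz2* and *Mrc1* are also known from a few epithelial and endothelial cells. *Cd68* encodes a glycoprotein of the lysosomal membrane, *Ctss* the protease cathepsin S and *Cd14* a co-receptor for bacterial lipopolysaccharide, and these 3 genes can be transcribed in fibroblasts as well.

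The promoters of 3 of the restricted genes are shown because genes of this kind are known to be switched on in myeloid cells by the ETS factor PU.1. This factor, encoded by *Spi1*, binds purine-rich sites with the core GAGGAA, the PU box. The 250 bases before the RefSeq start of transcription are given 5′ to 3′ on the strand of the gene, from GRCm38.p6, with PU boxes of either strand in capitals. They lie at chr4:130913066-130913315 on the plus strand for *Laptm5*, at chr10:117282273-117282522 on the minus strand for *Lyz2* and at chr2:14229164-14229413 on the plus strand for *Mrc1*. GENCODE M21 places the outermost start of each gene inside the window shown.
Laptm5: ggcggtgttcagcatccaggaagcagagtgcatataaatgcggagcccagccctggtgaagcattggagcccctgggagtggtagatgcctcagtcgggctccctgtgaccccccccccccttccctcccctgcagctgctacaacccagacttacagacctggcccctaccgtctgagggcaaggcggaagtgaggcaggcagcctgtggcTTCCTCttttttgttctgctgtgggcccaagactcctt
Lyz2: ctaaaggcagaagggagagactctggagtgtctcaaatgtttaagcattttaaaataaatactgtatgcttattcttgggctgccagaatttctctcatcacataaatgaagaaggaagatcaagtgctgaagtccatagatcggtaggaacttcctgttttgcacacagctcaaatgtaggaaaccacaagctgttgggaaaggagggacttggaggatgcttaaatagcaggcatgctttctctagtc
Mrc1: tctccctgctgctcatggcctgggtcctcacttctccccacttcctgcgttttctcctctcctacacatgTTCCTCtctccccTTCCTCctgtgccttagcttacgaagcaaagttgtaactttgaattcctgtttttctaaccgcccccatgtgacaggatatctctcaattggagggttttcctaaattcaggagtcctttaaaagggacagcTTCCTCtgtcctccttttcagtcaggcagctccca

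Promoters were searched from 250 bases before to 50 bases after the start, on both strands. A RefSeq promoter was used for 5 of the 7 genes, and the PU box was found in 4 of these 5, namely *Laptm5*, *Mrc1*, *Cd68* and *Ctss*. The same letters were found in 28.3% of 27025 promoters, so that a match is common. *Lyz2* held no match in this window. An AP-1 site (TGANTCA) was found in *Cd68* only, against 7.93% of all promoters, and a C/EBP site (TTGCNNAA) also in *Cd68* only, against 10.8%. *Spi1* itself was not among the genes analysed.

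The libraries held between 16988998 and 21806579 reads on the listed genes in control and between 17445002 and 23071528 in TGFβ1FKO cultures. Values are given as normalised counts, in which 1 read was worth between 0.830 and 1.11 depending on the library's size factor. *Tgfb1* was between 1298 and 1483 normalised counts in control and between 228 and 326 in TGFβ1FKO libraries, so that every library followed its label. Fibroblast markers were measured for 16 of 16 genes, led by *Col1a1* with 653489 ± 54463 (SD, n = 4) normalised counts in controls. Groups were compared with limma over all 15111 genes on log2(normalised count + 1), a scale that understates the change of low genes. A call needed a Benjamini-Hochberg adjusted p under 0.05 together with a log2 fold change beyond 0.6 in either direction.

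Levels of the 7 markers were low. Divided by exon length, *Lyz2* had the highest mean level over the 8 libraries, with 196.9 normalised counts per kb of exon, at the 71.4 percentile of all genes. *Cd68* followed with 68.5, *Cd14* with 57.7, *Csf1r* with 19.9, *Ctss* with 13.5, *Laptm5* with 6.15 and *Mrc1* with 1.08 normalised counts per kb. *Mrc1* lay at the 1.09 percentile, close to the lower end of the genes analysed. The fibroblast gene *Col1a1* had 100432 normalised counts per kb. The ranges over the 8 libraries did not overlap between *Lyz2* and *Cd68*, nor between *Cd14* and *Csf1r*. They overlapped between the other neighbours in this order, although *Cd68* was above *Cd14* in 8 of 8 libraries. *Csf1r* was above *Ctss* in 7 of 8, *Ctss* above *Laptm5* in 6 of 8 and *Laptm5* above *Mrc1* in 5 of 8 libraries. In such bulk cultures, fewer cells of a type and less RNA per cell cannot be told apart.

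Relatives of the markers that stromal cells are known to express were far more abundant. *Laptm4a* and *Laptm4b*, the lysosomal relatives of *Laptm5* with wide expression, had 11534 and 811 normalised counts per kb against its 6.15. *Mrc2*, which encodes the collagen-binding receptor Endo180 of mesenchymal cells, had 2020 against 1.08 for *Mrc1*. *Lamp1* and *Lamp2*, which encode the main lysosomal membrane proteins, had 9978 and 1439 against 68.5 for *Cd68*. *Pdgfra* and *Pdgfrb*, receptor tyrosine kinases of the family of *Csf1r* that mark fibroblasts, had 798.3 and 3537 against its 19.9. The cathepsins *Ctsk*, *Ctsb* and *Ctsl* had 11772, 3757 and 2334 normalised counts per kb against 13.5 for *Ctss*.

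**Figure D1:**
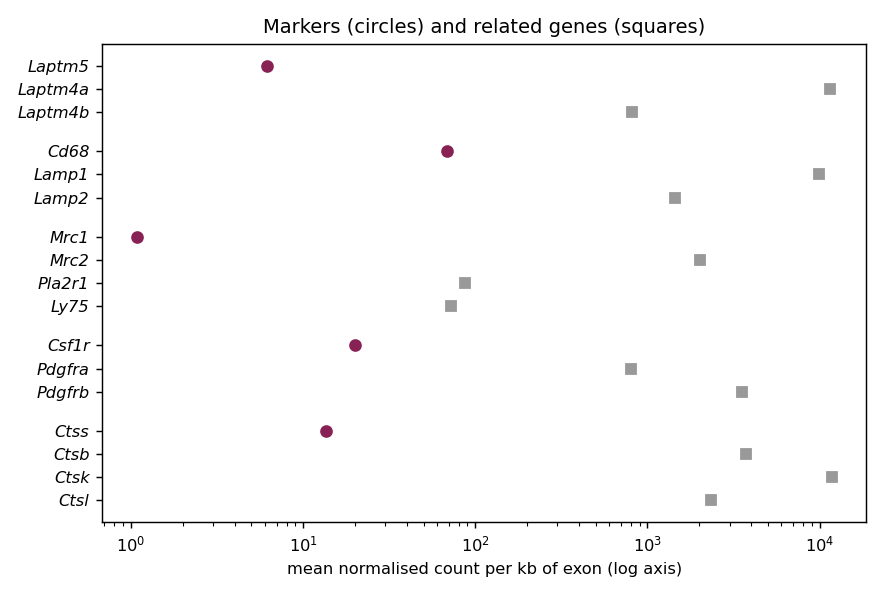
Mean normalised count per kb of exon over the 8 libraries, on a log axis, for 5 markers (circles) and for related genes (squares), grouped by family or neighbourhood. Each marker lies to the left of its relatives, as *Mrc1* does at 1.08 against *Mrc2* at 2020.

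None of the 7 markers was called between TGFβ1FKO and control fibroblasts (limma with Benjamini-Hochberg adjustment), where 0.0860% of all genes were called in either direction. At an unadjusted p under 0.05 there was 1 marker, *Laptm5*, which was lower, as were 3.87% of all genes, and no marker was higher, as were 3.59%. The log2 fold change was negative for 5 and positive for 2 markers, with a median of -0.11, and it was negative for 49.1% of all genes, with a median of 0.00. The groups did not overlap for 1 of the 7 markers, again *Laptm5*, which was lower. Of all genes, 2.10% were lower and 1.69% higher without overlap. The test of edgeR on the recovered reads called no marker and 0.132% of all genes. The test of DESeq2 against a fold change of 0 called *Laptm5* and 0.371% of all genes, whereas no marker passed when DESeq2 tested for a change beyond 0.6.

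**Figure D2:**
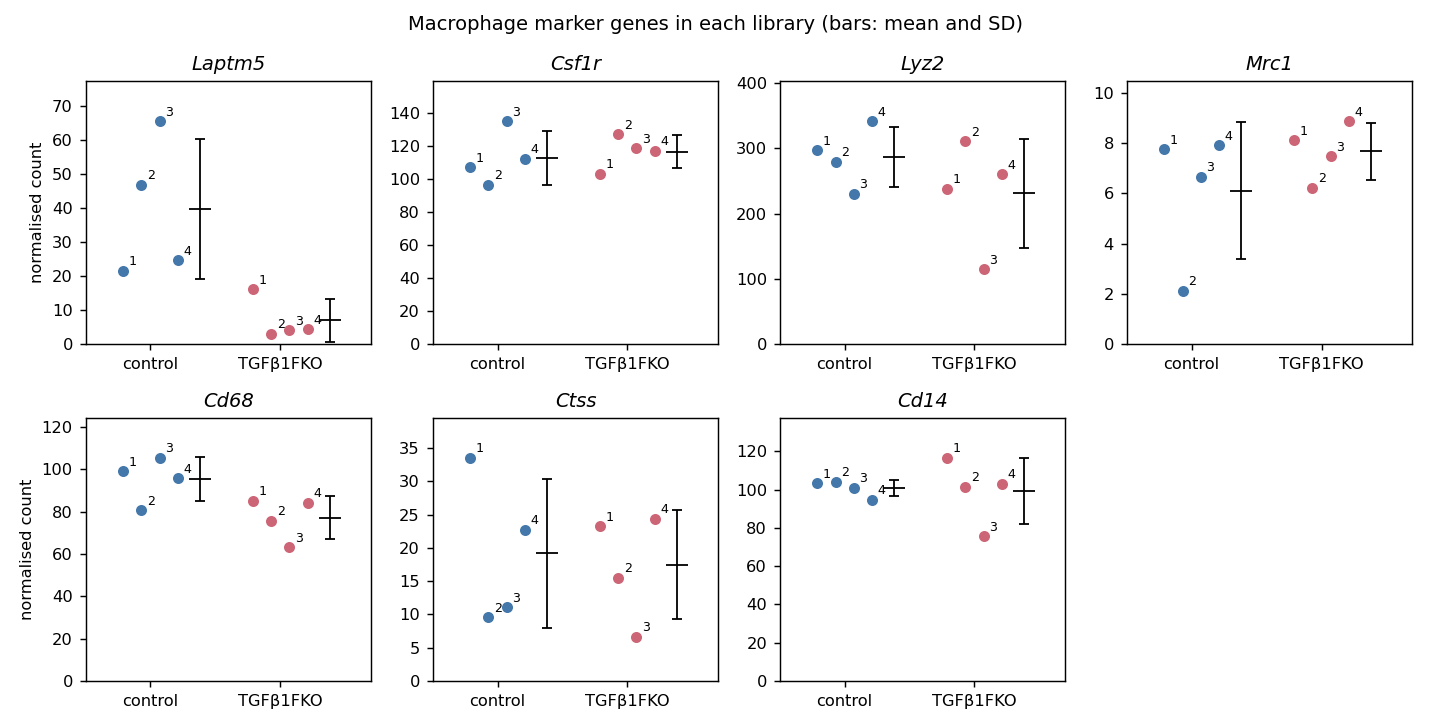
Normalised count of each marker in each of the 4 control (blue) and 4 TGFβ1FKO (red) libraries, numbered by replicate, with the mean and SD of each group beside the points and axes starting at 0. The groups are apart for *Laptm5*, whose controls are at 21.5 and above and whose TGFβ1FKO libraries are at 16.2 and below, and they overlap for the other 6 genes.

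*Laptm5* (ENSMUSG00000028581, chr4:130913125-130936141, plus strand) carried the widest difference among the markers. Its normalised counts were 21.5, 46.7, 65.4 and 24.7 in control libraries 1 to 4 and 16.2, 3.11, 4.15 and 4.43 in TGFβ1FKO libraries 1 to 4. Controls 2 and 3 were high, TGFβ1FKO library 1 was the only one of its group near the lower controls, and no TGFβ1FKO library reached any control. Control cultures had a mean of 39.6 ± 20.6 (SD, n = 4) and TGFβ1FKO cultures one of 6.98 ± 6.19 (SD, n = 4), or 17.6% of the control level. In limma this was a log2 fold change of -2.46 (SE 0.48, 95% interval from -3.50 to -1.43), with an unadjusted p = 0.000208 and an adjusted p = 0.112. The exact two-sided permutation test over libraries gave its smallest possible value (p = 0.0286).

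These values rested on few reads. Of the 181 reads of *Laptm5*, 153 came from controls and 28 from TGFβ1FKO libraries, so that the gene passed the authors' minimum of 40 reads over all libraries through its control group. TGFβ1FKO libraries 2, 3 and 4 held 3, 5 and 4 reads. The pooled reads per size factor were 5.52 times higher in controls, with an exact 95% interval from 3.67 to 8.58 that covers counting error only. Over the 8 libraries the coefficient of variation was 96.2%, where counting error alone would give 21.02%. Without TGFβ1FKO library 1 the log2 fold change was -2.92 and the gene was called (adjusted p = 0.0229, limma). Over the alternatives run for *Laptm5*, the adjusted p ranged from 0.000996 with DESeq2 against 0 to 0.421 without control library 3.

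Genes of the glial lineage moved with the groups in the same direction as *Laptm5*. *Sox10*, a transcription factor of Schwann cells and other neural crest derivatives, had normalised counts of 132.5, 147.7, 207.4 and 72.1 in control libraries 1 to 4 and of 19.3, 7.25, 18.3 and 21.1 in TGFβ1FKO libraries 1 to 4. It was called lower (log2 fold change -3.01, adjusted p = 0.00499, limma). Of the Schwann cell markers, 11 of 12 were measured and 3 were called lower, against 0.0794% of all genes. At an unadjusted p under 0.05, 10 were lower, against 3.87% of all genes, and the median log2 fold change was -2.27. The calls were 6 without control library 4, and 0 with a median of -0.76 where at least 10 reads were required in every library, a filter that leaves out *Sox10*. Their summed level was between 4318 and 5588 normalised counts in control and between 3606 and 4714 in TGFβ1FKO libraries. *Erbb3*, the receptor for neuregulin in Schwann cells, was like *Laptm5* highest in control library 3, with 155.2 normalised counts, and highest among TGFβ1FKO libraries in library 1, with 27.4. Control library 4 was the lowest control for *Sox10*, *Foxd3* and *Erbb3*. For *Laptm5*, control libraries 1 and 4 held 25 reads each, so that their normalised counts differed by size factor only. After the group means were subtracted, r with *Laptm5* over the 8 libraries was 0.73 for *Erbb3*, 0.60 for *Sox10* and -0.02 for *Foxd3*. The part of these cells in the difference in *Laptm5* was not tested.

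**Figure D3:**
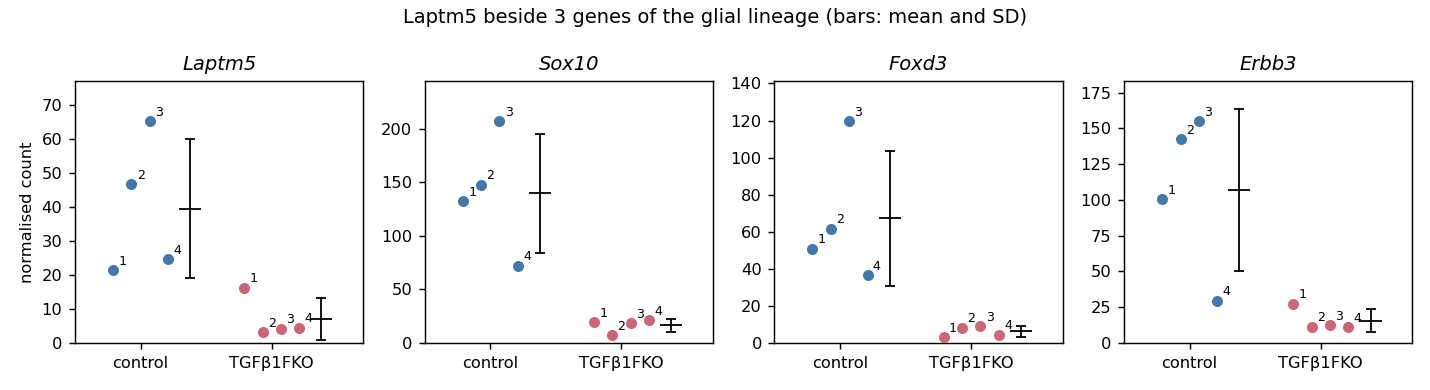
Normalised counts of *Laptm5* and of the glial genes *Sox10*, *Foxd3* and *Erbb3* in each control (blue) and TGFβ1FKO (red) library, numbered by replicate, with mean and SD beside the points. In each of the 4 panels control library 3 is the highest and no TGFβ1FKO library reaches a control.

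*Csf1r* (ENSMUSG00000024621, chr18:61100598-61132149, plus strand) was nearly level between groups. Its normalised counts were 107.5, 96.7, 135.3 and 112.6 in controls and 103.4, 127.4, 118.7 and 117.4 in TGFβ1FKO libraries. All TGFβ1FKO values lay within the range of the controls. The means were 113.0 ± 16.3 (SD, n = 4) and 116.7 ± 9.93 (SD, n = 4), with a log2 fold change of 0.05 and a 95% interval from -0.24 to 0.35 (adjusted p = 0.951, limma). This interval does not reach the threshold of 0.6 in either direction. The variation over libraries was 10.99%, close to the 9.29% of counting error. The end of *Csf1r* overlaps *Hmgxb3* on the opposite strand, which had a mean of 758 normalised counts, and the libraries do not record strand. Reads of the overlap cannot be told apart by strand.

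*Lyz2* (ENSMUSG00000069516, chr10:117277331-117282321, minus strand) had the most reads of the 7 markers, 2071 in all. Its normalised counts were 297.7, 279.4, 230.6 and 341.7 in controls and 238.2, 310.7, 114.6 and 260.4 in TGFβ1FKO libraries. TGFβ1FKO library 3 stood below all others and the remaining values overlapped. The means were 287.4 ± 46.0 (SD, n = 4) and 231.0 ± 83.3 (SD, n = 4), with a log2 fold change of -0.39 (SE 0.24, 95% interval from -0.92 to 0.14, adjusted p = 0.734, limma). Without TGFβ1FKO library 3 the mean of that group was 93.9% of the control mean, against 80.4% with it. The coefficient of variation was 26.7% where counting error would give 6.22%. The neighbouring gene *Lyz1* lies 5476 bp away, and its annotated transcript matches that of *Lyz2* at 92.0% of aligned positions, so that reads shared between them are uncertain. *Lyz1* was not among the genes analysed.

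*Mrc1* (ENSMUSG00000026712, chr2:14229392-14332057, plus strand) had the fewest reads of the 7 markers, 56 in all. It had 9, 2, 6 and 8 reads in controls and 8, 6, 9 and 8 reads in TGFβ1FKO libraries. Control library 2 was the lowest and the groups overlapped. The means were 6.11 ± 2.71 (SD, n = 4) and 7.66 ± 1.12 (SD, n = 4) normalised counts, with a log2 fold change of 0.39 and a 95% interval from -0.53 to 1.31 (adjusted p = 0.867, limma). The variation of 30.4% was below the 37.8% that counting error gives, and the interval reaches past the threshold of 0.6 on the higher side.

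*Cd68* (ENSMUSG00000018774, chr11:69664213-69666153, minus strand) had normalised counts of 98.9, 80.7, 105.3 and 95.8 in controls and of 85.1, 75.6, 63.1 and 84.2 in TGFβ1FKO libraries. The groups overlapped through control library 2 alone, which lay below TGFβ1FKO libraries 1 and 4. The means were 95.2 ± 10.4 (SD, n = 4) and 77.0 ± 10.2 (SD, n = 4). This was a log2 fold change of -0.31 (SE 0.15, 95% interval from -0.63 to 0.02, adjusted p = 0.675, limma), and the exact permutation test gave p = 0.0857. *Eif4a1*, with a mean of 8845 normalised counts, ends 783 bp upstream of *Cd68* on the same strand, and reads that run past its end could not be separated here.

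*Ctss* (ENSMUSG00000038642, chr3:95526786-95556403, plus strand) was the marker that varied most after *Laptm5*. Its normalised counts were 33.6, 9.56, 11.1 and 22.7 in controls and 23.3, 15.5, 6.64 and 24.4 in TGFβ1FKO libraries. High and low values occurred in both groups. The means were 19.2 ± 11.2 (SD, n = 4) and 17.5 ± 8.22 (SD, n = 4), with a log2 fold change of -0.11 and a 95% interval from -1.10 to 0.89 (adjusted p = 0.974, limma). The interval reaches past the threshold of 0.6 in both directions. The coefficient of variation over libraries was 49.9% against 23.2% from counting error on 149 reads.

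*Cd14* (ENSMUSG00000051439, chr18:36725067-36726798, minus strand) had normalised counts of 103.2, 104.1, 100.9 and 94.8 in controls, which were within a narrow range. TGFβ1FKO libraries had 116.6, 101.5, 75.6 and 103.0, with library 1 above and library 3 below all controls. The means were 100.8 ± 4.20 (SD, n = 4) and 99.2 ± 17.1 (SD, n = 4), with a log2 fold change of -0.04 and a 95% interval from -0.36 to 0.28 (adjusted p = 0.967, limma).

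**Figure D4:**
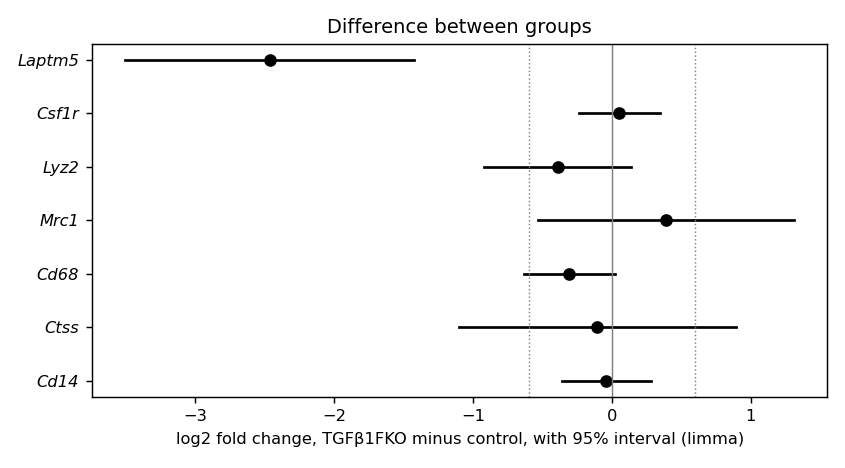
Log2 fold change of each marker, TGFβ1FKO minus control, with its 95% interval from limma, on the scale of log2(normalised count + 1), with dotted lines at the threshold of 0.6 in either direction. The interval of *Laptm5* lies below the lower line, and those of *Csf1r* and *Cd14* lie between the lines. The intervals are not adjusted for the number of genes tested, and *Laptm5* was not called (adjusted p = 0.112, limma).

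The markers were next compared library by library. TGFβ1FKO library 3 had the lowest value of all 8 libraries for 4 of the 7 markers, *Cd68*, *Ctss*, *Lyz2* and *Cd14*. Control library 3 had the highest value for 3 markers, and control library 2 the lowest for 2. The summed level of the 7 markers was between 619 and 700 normalised counts in controls, and between 390 and 640 in TGFβ1FKO libraries. Of the 6 further macrophage genes measured, TGFβ1FKO library 3 was lowest for 4, *Mpeg1*, *Trem2*, *Gpnmb* and *Mertk*, whereas *Lyve1* was lowest in TGFβ1FKO library 2 and *Hmox1* in control library 3. TGFβ1FKO library 3 was also lowest in sums over some lists that are not particular to macrophages, with 303430 normalised counts for 40 lysosomal genes, 38733 for the LAMP family and 20381 for the LAPTM family. These lists are not separate, since the measured genes of both families other than *Cd68* and *Laptm5* are among the 40. It was not lowest for fibroblast markers (1963862, against 1890994 in control library 1) or for the 6 further macrophage genes (20402, against 20082 in control library 1). Nor was it lowest for pan-leukocyte genes (6688, against 6508 in TGFβ1FKO library 2). Among the markers it was not lowest for *Laptm5*, *Csf1r* or *Mrc1*. With 23071528 reads it was the deepest of the 8 libraries, and the part of depth in these values was not tested. The share of all genes that were lowest in this library was not counted, so that these counts have no background to be read against.

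**Figure D5:**
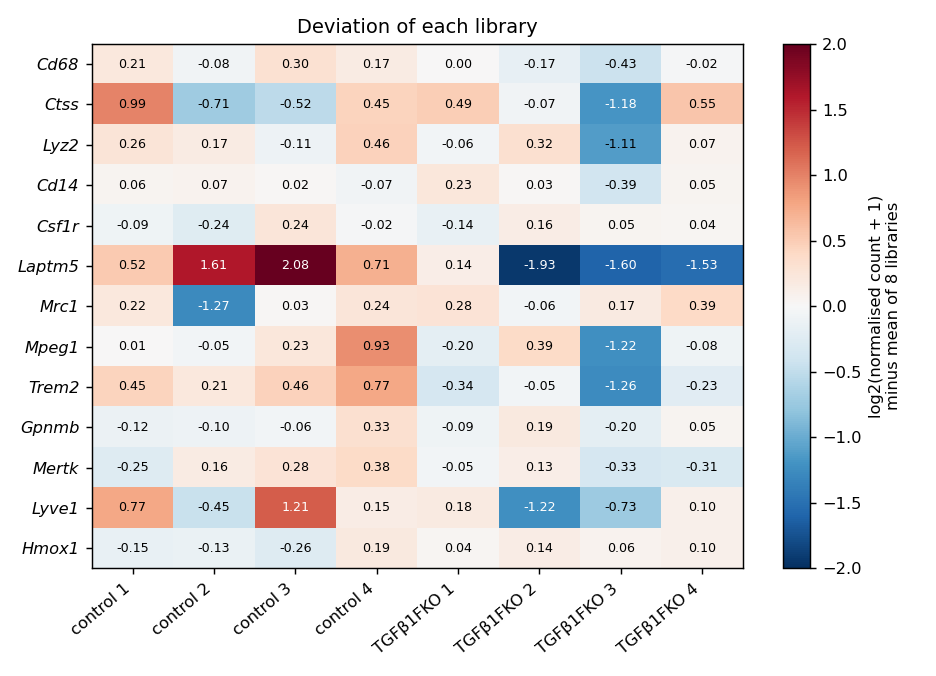
Deviation of each library from the mean of the 8 libraries on the scale of log2(normalised count + 1), for the 7 markers and for the 6 further macrophage genes measured, with blue below and red above the mean. TGFβ1FKO library 3 is the lowest library for *Cd68*, *Ctss*, *Lyz2*, *Cd14*, *Mpeg1*, *Trem2*, *Gpnmb* and *Mertk*, and TGFβ1FKO libraries 2, 3 and 4 are blue for *Laptm5*.

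Over the 8 libraries, 13 of the 21 pairs of markers had a positive and 8 had a negative Pearson's r on log2 values, with a median of 0.30, and no pair passed an adjusted p of 0.05 (lowest adjusted p = 0.443 for Pearson's r and 0.486 for Spearman's rho, exact permutation tests). The pair with the lowest unadjusted p was *Laptm5* and *Cd68* (r = 0.71, exact permutation p = 0.0467, rho = 0.71, exact permutation p = 0.0576). Its r was 0.44 without the 2 libraries farthest from the median of *Laptm5*, and 0.30 after the group means were subtracted. *Lyz2* and *Ctss* had r = 0.67 (exact permutation p = 0.0503) and rho = 0.40 (exact permutation p = 0.327), and r was 0.35 without the 2 farthest libraries and 0.70 after the group means were subtracted. The r after this subtraction was also 0.73 for *Lyz2* and *Cd14* and 0.72 for *Cd68* and *Ctss*.

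Other genes of macrophages were looked up in a panel of 41. Of these, 35 were not among the 15111 genes analysed, and 6 were measured, namely *Trem2*, *Mpeg1*, *Gpnmb*, *Mertk*, *Lyve1* and *Hmox1*. None was called (limma, edgeR and DESeq2), and 1 was lower at an unadjusted p under 0.05, where 3.87% of all genes were. The median log2 fold change was -0.42. This median was -0.23 without TGFβ1FKO library 3, -0.27 without control library 4 and -0.022 over the 3 genes with at least 10 reads in every library. The gene with the low p was *Trem2*, a lipid-sensing receptor of macrophages, with normalised counts of 7.74, 6.37, 7.76 and 9.88 in controls and of 4.05, 5.18, 1.66 and 4.43 in TGFβ1FKO libraries. It had 9, 6, 7 and 10 reads in controls and 4, 5, 2 and 4 in TGFβ1FKO libraries, 47 in all. Most of the reads that took *Trem2* past the minimum of 40 came from the group where it was high. Unlike for *Laptm5*, the reads of that group alone did not reach this minimum. The groups did not overlap (log2 fold change -0.94, adjusted p = 0.657, limma), and 2.10% of all genes were lower without overlap. *Mpeg1*, the pore-forming protein of phagocytes, had 161 reads and overlapping groups. *Gpnmb* and *Hmox1* are also transcribed in other cells, and at means of 15157 and 6648 normalised counts in controls they made up nearly the whole of the panel's summed level.

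Of 14 genes taken as defining for macrophages and leukocytes, 11 were not among the genes analysed. These were *Adgre1* (F4/80), *Ptprc* (CD45), *Itgam* (CD11b), the complement genes *C1qa*, *C1qb* and *C1qc*, the adaptors *Fcer1g* and *Tyrobp*, *Spi1*, *Aif1* and *Cd52*. The remaining 3, *Coro1a*, *Mertk* and *Lcp1*, had means of 15.2, 54.1 and 55.6 normalised counts in controls and of 14.0, 44.1 and 52.6 in TGFβ1FKO libraries. The authors kept a gene only where its reads summed to at least 40, and which of the 11 were removed in this way was not analysed here. The 7 genes are markers in common use, whereas these 11 genes that define the cell type had no values here.

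Of 29 pan-leukocyte genes, 12 were measured and none was called with limma or edgeR, whereas DESeq2 against 0 called *Laptm5*, which belongs to this list. At an unadjusted p under 0.05, 3 were lower, *Laptm5*, *Lsp1* and *Sh3bgrl3*, where 3.87% of all genes were. The median log2 fold change was -0.13, or -0.20 without control library 2 and -0.24 without TGFβ1FKO library 3. *Arhgdib* and *Sh3bgrl3*, which many cell types transcribe, had 2529 and 3202 normalised counts in controls. *Lsp1* was abundant as well, with 1449. Named after their values had been seen, the leukocyte genes *Cd53*, a tetraspanin, and *Itgb2*, the integrin subunit CD18, had means of 59.5 and 60.1 in controls and of 45.1 and 51.2 in TGFβ1FKO libraries, with overlapping groups. Among the 12 measured genes, 10 had a negative and 2 a positive log2 fold change. The positive ones were *Arhgdib*, with means of 2529 in controls and 2661 in TGFβ1FKO libraries, and *Plek*, with 67.1 and 68.2. Of 25 markers of T cells, mast cells, neutrophils, B cells and Langerhans cells, 2 were measured, *Trac* and *Trbc2*, with 118 and 47 reads in all. They were not called, and *Trac* was at a log2 fold change of 0.55 in limma (adjusted p = 0.723).

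The ligands of the receptor encoded by *Csf1r* were transcribed in the cultures. *Csf1* was between 16291 and 16633 normalised counts in control and between 16792 and 18705 in TGFβ1FKO libraries, without overlap (log2 fold change 0.11, adjusted p = 0.671, limma). Of all genes, 1.69% were higher without overlap. *Il34* was between 427.6 and 547.1 and between 374.5 and 560.3 normalised counts. Of 18 genes of this axis, 10 were measured and none was called (limma, edgeR and DESeq2). The median log2 fold change was -0.03, and it turned positive without control library 4 (0.042) or TGFβ1FKO library 3 (0.021). At an unadjusted p under 0.05, 1 was lower, where 3.87% of all genes were. The lower gene was *Runx1*, a transcription factor of blood stem cells that is also found in mesenchymal cells, with means of 789.9 and 641.6 normalised counts.

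Partners of *Cd14* in the recognition of lipopolysaccharide were measured as well. *Tlr4*, the signalling receptor, averaged 668.7 ± 86.8 (SD, n = 4) normalised counts in controls against 711.2 ± 42.1 (SD, n = 4) after deletion, and *Ly96*, its co-receptor MD-2, had 97.1 ± 14.4 and 100.6 ± 7.22 (SD, n = 4 each). Of 24 genes of this pathway, 21 were measured, 13 of them with a positive and 8 with a negative log2 fold change, and the median was 0.03, or between -0.0026 without control library 2 and 0.066 without TGFβ1FKO library 3. None was called with limma or edgeR, and 1 was lower at an unadjusted p under 0.05, against 3.87% of all genes. This was *Lbp*, which encodes the binding protein for lipopolysaccharide, with means of 127.2 and 62.1 normalised counts (log2 fold change -0.94, adjusted p = 0.459, limma), and DESeq2 against 0 called it.

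Lysosomal genes gave a setting for *Cd68*, *Ctss* and *Laptm5*. All 40 genes of the list were measured, 34 of them with a negative log2 fold change where 49.1% of all genes had one, and the median was -0.09. Control library 4 was high and TGFβ1FKO library 3 low over the list, with median deviations of 0.12 and -0.10, and the median log2 fold change was -0.054 without the first and -0.056 without the second. None was called (limma, edgeR and DESeq2), and 4 were lower at an unadjusted p under 0.05, where 3.87% of all genes were. The cathepsin gene *Ctsc* had means of 109.3 and 66.2 normalised counts (log2 fold change -0.69, adjusted p = 0.536, limma), with control library 4 at 65.2 within the range of the TGFβ1FKO libraries. *Ctso* was between 690.8 and 805.9 normalised counts in control and between 540.6 and 661.9 in TGFβ1FKO libraries, without overlap (log2 fold change -0.31, adjusted p = 0.331, limma). *Laptm4a* was also lower without overlap (log2 fold change -0.07), and *Lamp1* and *Lamp2* had log2 fold changes of -0.07 and -0.10. In all, 4 of the 40 genes were lower and none higher without overlap, where 2.10% of all genes were lower and 1.69% higher.

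Genes of antigen presentation by MHC class II, which activated macrophages carry, were measured for 7 of 13. None was called (limma, edgeR and DESeq2) or passed an unadjusted p of 0.05, and the median log2 fold change was 0.13, or 0.049 without control library 2 and 0.078 without TGFβ1FKO library 2. *Cd74*, the invariant chain, had means of 16.2 and 11.01 normalised counts, and *H2-Eb1* had 14.1 and 20.4, with overlapping groups. Of 12 monocyte chemoattractants 9 were measured and none was called (limma, edgeR and DESeq2). The log2 fold change was negative for 8 and positive for 1, where 49.1% of all genes had a negative one. The median was -0.20, or -0.12 without control library 1 and -0.29 without control library 4. At an unadjusted p under 0.05, 3 were lower, *Ccl7*, *Ccl8* and *Cxcl12*, with log2 fold changes of -0.15, -0.47 and -0.37 and adjusted p-values of 0.592, 0.415 and 0.483 (limma). Such a p was reached in the same direction by 3.87% of all genes.

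Markers of other skin cells were read beside the macrophage markers. Fibroblast markers had no call and a median log2 fold change of -0.01. Endothelial markers, which matter for *Mrc1* and *Lyve1* because vessels are known to transcribe them, were measured for 17 of 18, with 2 lower at an unadjusted p under 0.05 and a median of -0.45, or -0.30 without control library 3. Keratinocyte markers were measured for 6 of 12, with 3 higher at an unadjusted p under 0.05 and a median of 0.28, and their summed level was between 232.7 and 286.1 normalised counts in control and between 313.2 and 363.5 in TGFβ1FKO libraries. Pericyte markers had 8 of 10 measured, 1 lower and 1 higher at an unadjusted p under 0.05 and a median of -0.12, which was -0.045 without control library 1, -0.060 without control library 3, -0.19 without control library 4 and 0.0021 without TGFβ1FKO library 3. At an unadjusted p under 0.05, 3.87% of all genes were lower and 3.59% higher. None of these lists held a called gene in limma over all libraries. *Myh11*, a pericyte marker that encodes a smooth muscle myosin, was called higher in TGFβ1FKO fibroblasts without TGFβ1FKO library 1, with edgeR and with DESeq2 against 0.

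The genes most like the markers across libraries were taken by a rule, among genes with a mean of at least 50 normalised counts. Likeness was Pearson's r over the 8 libraries on log2 values, given as a description because the highest of many values are large by selection. To the mean of the standardised values of *Laptm5*, *Csf1r*, *Lyz2* and *Mrc1*, the most alike were *Neat1*, a nuclear long non-coding RNA (r = 0.99), *1810026B05Rik* (r = 0.97) and *Tmem107* (r = 0.97), a gene of the ciliary transition zone. To *Csf1r* alone, they were *Zxdb* (r = 0.97), *Agpat1* (r = 0.97), which acts in phospholipid synthesis, and *Gm53* (r = 0.94). None of the 20 genes in these lists was a member of the macrophage panel or of the pan-leukocyte list. Few such genes could have appeared, so that nothing follows from their absence. Of the 41 panel genes, 35 were not analysed and 4 had a mean under 50 normalised counts. The same numbers were 17 and 5 for the 29 pan-leukocyte genes.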

How the data were processed

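RNA of 4 control and 4 TGFβ1FKO dermal fibroblast cultures was sequenced in paired-end, non-directional libraries. The groups follow the labels. The submitters' processing notes name CASAVA 1.8, HISAT2 2.0.5, featureCounts 1.5.0-p3, R 4.3.2 and DESeq2 1.42.0. The authors aligned reads to GRCm38 and kept genes whose reads summed to at least 40 over all libraries. The values the authors deposited are normalised counts (a signal), with 0.5 added to reads per size factor. Their deposited table further holds the log2 fold change, score (test statistic) and p-values of their own comparison, which were not used here.

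After 0.5 was subtracted, 100% of values in each library were whole multiples of 1 read within 0.1 reads, and the lowest sum of reads over the libraries was 41. As these are normalised values, log2(normalised count + 1) was fitted in R 4.3.3 with limma 3.58.1 and its trend option over 15111 genes. Calls needed an adjusted p under 0.05 (Benjamini-Hochberg) and an absolute log2 fold change over 0.6. Recovered reads were tested with edgeR 4.0.16 and DESeq2 1.42.0 as alternatives. The fits were tested on simulated data. Two-sided exact permutation tests of 4 against 4 libraries reach no p below 0.0286. Intervals of pooled reads are exact, cover counting error only, and treat PCR reads as molecules. Every pair of libraries within a group differed by more than sampling noise (lowest chi-square per degree of freedom 5.14).

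The markers and gene lists were chosen with earlier results of these data known. Besides the 7 markers and *Tgfb1*, named genes were the members of the marker families, and from each list the 4 most abundant genes, the 3 with the smallest p and those called, the 14 defining genes, and the 10 genes most like the restricted markers or *Csf1r*. Other genes named are said to be so. Coordinates and exon lengths are from GENCODE M21, which merges the exons of all isoforms of a gene, and promoters are from RefSeq. No protein sequences were used here. As alternatives, the pseudocount, the scaling and the thresholds were changed, 10 reads were required in every library, the replicate number was taken as a block, and libraries were left out in turn.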

Additional observations from a re-analysis of the deposited data

Results flagged for a closer look

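TGFβ1FKO library 1 lay apart from the rest of its group in *Laptm5*. Its normalised count was 16.2, against 3.11 to 4.43 in the other 3 TGFβ1FKO libraries, and the gap was 0.899 of the range of the group. The 14 groups of 4 libraries formed by the 7 markers gave 1 such case, and chance flags about 1 in 20 groups, or 0.7 of these 14. Without this library *Laptm5* was called lower (log2 fold change -2.92, adjusted p = 0.0229, limma).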

How the results depend on the processing

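The number of markers called was 0 with limma, and it was 1, *Laptm5*, without TGFβ1FKO library 1 (log2 fold change -2.92, adjusted p = 0.0229) and with DESeq2 against 0 (log2 fold change -2.50, adjusted p = 0.000996). Leaving out 1 library at a time gave log2 fold changes of *Laptm5* between -2.92 and -2.18, of *Cd68* between -0.38 and -0.21, of *Lyz2* between -0.56 and -0.09 and of *Mrc1* between 0.03 and 0.54, so that these 4 kept their sign. *Csf1r* ranged from -0.018, without control library 2, to 0.14. *Ctss* ranged from -0.36 to 0.27 and turned positive without control library 1 (0.21), control library 4 (0.03) or TGFβ1FKO library 3 (0.27). *Cd14* ranged from -0.12 to 0.084 and turned positive without TGFβ1FKO library 3 (0.084). The r of *Lyz2* and *Cd14* was 0.70, and -0.40 without the 2 farthest libraries. The causes of these changes were not tested. Over all genes, limma called 13, and 3 with at least 10 reads in every library (a filter that left *Laptm5*, *Ctss* and *Mrc1* untested), 25 and 5 at an adjusted p under 0.1 and 0.01, and between 5 and 32 with a library left out. edgeR called 20, and 22 with TMM scaling, and DESeq2 called 56 against 0 and 15 against 0.6. Of the Schwann cell markers, limma called 3, and 7 with the replicate number as a block, 6 without control library 4 and 0 with at least 10 reads in every library, where their median log2 fold change was -0.76 against -2.27. The same filter moved the median of the macrophage panel from -0.42 to -0.022, of endothelial markers from -0.45 to -0.22 and of keratinocyte markers from 0.28 to 0.57. For Schwann cell markers edgeR called 5, and 6 with TMM scaling, and DESeq2 called 7 against 0 and 5 against 0.6. TMM scaling moved the median log2 fold change of all genes by -0.0052.

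The labels do not say whether the replicate numbers pair the libraries. Same-numbered libraries deviated with correlations of 0.156, -0.134, 0.052 and 0.159, within the range of the other pairs of control and TGFβ1FKO libraries (-0.319 to 0.387). These values cannot show how the cultures were prepared. With the replicate number as a block, limma called 31 genes and no marker, and *Laptm5* stayed at -2.46 with an adjusted p of 0.101. *Mrc1*, *Ctss* and the TGFβ1FKO values of *Laptm5* rest on 56, 149 and 28 reads. Counting error would give a coefficient of variation of 37.8% for *Mrc1*, 23.2% for *Ctss* and 21.02% for *Laptm5* over all libraries, against 30.4%, 49.9% and 96.2% measured, so that of these 3 only the spread of *Mrc1* lay within counting error.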

Other observations

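Likeness to *Lyz2* and to *Laptm5* alone was looked at after the other results had been seen, and it is given as values without a test. The 10 genes most like *Lyz2* over the 8 libraries were, in order, *Apol9b*, *Btd*, *Apod*, *Isg15*, *Ly6a*, *Usp18*, *Eif2d*, *Oas3*, *Ypel2* and *Adcy2*, with r from 0.97 to 0.93. For *Apol9b*, r was 0.97 after the group means were subtracted and 0.92 without the 2 libraries farthest from the median of *Lyz2*, TGFβ1FKO library 3 and control library 4. Without the same 2 libraries, r fell from 0.96 to 0.66 for *Isg15* and from 0.94 to 0.82 for *Usp18*, and it was 0.93 for *Oas3*. The other genes of this list were not checked in this way.

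The genes most like *Laptm5* were *Csrp2*, a LIM protein of smooth muscle (r = 0.97), *Sgo1*, which protects cohesion of sister chromatids (r = 0.97), and *Medag* (r = 0.96). They were followed by *Pde8a*, *Phyh*, *Atp6ap2*, *Arl2bp*, *Mbp*, *B9d2* and *Mbd4*, with r from 0.96 to 0.93. For *Csrp2*, r was 0.92 after the group means were subtracted and 0.95 without the 2 libraries farthest from the median of *Laptm5*, TGFβ1FKO libraries 2 and 3. For *Mbp* the same values were 0.82 and 0.89.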
